A study of Rattus norvegicus with 90 samples.

Results

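Cells of the line AR42J, which comes from an acinar tumour of the rat pancreas, were measured after 60 or 120 min with cycloheximide alone and set against untreated cells of the same batch and time. The members were chosen by their labels: cycloheximide-only and untreated arrays at these times whose titles carry a number, in batches 4 and 5. They numbered 8 arrays of 90, with 2 arrays for each time and treatment, and formed 4 pairs. The wider series followed gastrin, gastrin with cycloheximide, cycloheximide and no addition over time in the same line, and asked which responses to gastrin need new protein. By their labels the groups differed in cycloheximide alone, and neither held gastrin. The dose of cycloheximide, its solvent and any time of pretreatment are not given in the sources used here. Markers of acinar cells, the named origin of the line, had a median level of 11.95 over 20 measured, and ran from 6.11 to 14.52. The 13 neuroendocrine markers ran from 6.12 to 13.09 with a median of 7.03, and 4 ductal markers from 6.08 to 9.49. Markers of stromal, immune and endothelial cells lay between 5.95 and 6.39 where the median of an array was 6.40 to 6.41.

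Cycloheximide binds the large ribosomal subunit and blocks the elongation step of translation, so that short-lived proteins disappear from cells while their messengers can still be made. Genes whose transcription is held down by unstable repressors, or whose messengers are removed during translation, are known to accumulate RNA under the drug, which is called superinduction for the immediate early genes. Splicing regulators that produce messengers with a premature stop, removed by nonsense-mediated decay, are another known class, since that decay requires translation.

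The 250 bases before the transcription start are shown for 3 of the genes with the largest rises, because each held one of the searched sites of early-response factors. They come from RefSeq (assembly GRCr8), and capitals mark the matched site. The motifs searched on both strands were the CRE (TGACGTCA), the AP-1 site (TGANTCA), the E-box (CACGTG), the CArG box and the NF-kB site, and no 2 matches in the sequences shown overlap. Gadd45g lies at chr17:13530352-13530601 on the minus strand with 1 E-box, Egr1 at chr18:26736828-26737077 on the plus strand with 2 CArG boxes, which serum response factor binds, and Ccnl1 at chr2:152507469-152507718 on the minus strand with 1 CRE, the site of CREB and ATF proteins.
Gadd45g: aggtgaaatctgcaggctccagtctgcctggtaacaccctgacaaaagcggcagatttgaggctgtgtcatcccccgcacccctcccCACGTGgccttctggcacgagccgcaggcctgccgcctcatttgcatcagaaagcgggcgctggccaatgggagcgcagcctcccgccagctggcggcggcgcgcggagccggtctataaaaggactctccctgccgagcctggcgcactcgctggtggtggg
Egr1: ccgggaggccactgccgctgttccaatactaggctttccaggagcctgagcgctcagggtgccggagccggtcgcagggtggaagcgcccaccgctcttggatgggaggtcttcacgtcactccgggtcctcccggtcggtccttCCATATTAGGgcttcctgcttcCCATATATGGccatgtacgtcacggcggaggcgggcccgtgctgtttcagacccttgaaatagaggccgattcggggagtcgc
Ccnl1: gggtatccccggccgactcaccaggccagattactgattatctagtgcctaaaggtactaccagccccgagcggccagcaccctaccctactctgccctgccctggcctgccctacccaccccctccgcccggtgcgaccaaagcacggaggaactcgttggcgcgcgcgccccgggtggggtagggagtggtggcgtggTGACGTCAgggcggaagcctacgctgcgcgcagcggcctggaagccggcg
Of all 27457 promoters of this length, 1.70% held the CRE, 6.36% the AP-1 site, 5.79% the E-box, 1.50% the CArG box and 3.52% the NF-kB site. Among the 12 largest rises, 8 had an entry, and the CRE, the E-box and the CArG box were each found in 1 of them, while the AP-1 and NF-kB sites were found in 0. Among the 10 largest falls, 9 had an entry and 1 held an E-box.

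Values are the deposited log2 levels. All differences are cycloheximide minus control on that scale, given ± the SE from limma. The fold changes given hold only if the scale is a plain log2. Batch here means the number in the prefix of an array's title, which does not name separate cultures. The p-values therefore cover only how far these samples vary, and that variation may be technical. With cycloheximide, 3213 of 22523 probes (14.3%) had an adjusted p under 0.05 in limma for the mean of both times, of which 1629 (7.23%) were higher and 1584 (7.03%) lower, and the median difference of all probes was -0.0077. At 60 min alone 1488 probes passed (6.61%), with 898 higher (3.99%) and 590 lower (2.62%). At 120 min 3422 passed (15.2%), with 1715 higher (7.61%) and 1707 lower (7.58%). For the mean, 102 probes passed without batch 4 and 607 without batch 5. Those fits held fewer arrays and a single effect common to both times. Their lower counts therefore cannot be assigned to the batch left out. All 4 cycloheximide arrays lay above all 4 controls for 880 probes (3.91%) and below them for 913 (4.05%). Fitted alone, the probes above the median level gave 3363 calls for the mean, so bright probes passed more often than all probes. Most of the gene lists below hold mainly members above that level. The shares of all probes given beside their counts are therefore low as a background for them.

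The untreated arrays at 120 min stood apart from the other untreated arrays. In both batches 222 probes (0.986%) were more than 0.5 above, and 209 (0.928%) more than 0.5 below, both the 60 min and the 360 min control. The same count was 3 above and 2 below for the cycloheximide arrays, and 2 above and 2 below for the gastrin arrays, and 18 above and 2 below for the arrays with gastrin and cycloheximide. One array with both agents, batch 5 at 120 min, had a median departure of 0.80 over the 222 probes and -0.67 over the 209, where the controls had 0.82 and 0.79 (batches 4 and 5), and -0.78 in each batch, and the batch 4 array with both agents 0.038 in both sets. Without that array, a choice made after seeing the data, 4219 probes passed for the mean, 2359 at 60 min and 4525 at 120 min. Changes were therefore read at 60 min as well, and against the mean of the 60 and 360 min controls of each batch in place of the 120 min control. That reference gave 1221 calls at 120 min in place of 3422, and 2611 for the mean. It uses each 60 min control again, which limma does not take into account, so calls for the mean with it are no independent check.

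The largest rise was that of Gadd45g, and those of Txnip, Egr1 and Jun came next. Gadd45g, which encodes a small stress protein that takes part in growth arrest, was 12.19 and 12.03 at 60 min and 14.16 and 12.79 at 120 min with cycloheximide (batches 4 and 5), against 9.87 and 9.82 at 60 min and 10.23 and 9.53 at 120 min in controls. The groups did not overlap, and the cycloheximide arrays at 120 min were the highest. The mean difference was 2.93 ± 0.18 (4 pairs, limma adjusted p = 1.33e-07, 7.60-fold), with 2.26 ± 0.26 at 60 min (adjusted p = 0.000105). Txnip, the thioredoxin-binding protein that restrains glucose uptake, was 13.02 and 11.83 at 60 min and 13.26 and 12.71 at 120 min with cycloheximide, against 9.38 and 9.48 and then 10.54 and 10.27 in controls. Every cycloheximide array lay above every control. Txnip differed by 2.79 ± 0.21 (limma adjusted p = 8.12e-07, 6.90-fold). Its 2.99 ± 0.30 was the largest rise at 60 min among genes that passed there with the same sign in both pairs. Genes without a symbol, or with a LOC or RGD number for one, were left aside.

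The immediate early transcription factors followed. Egr1, a zinc finger factor, was 10.37 and 11.41 at 60 min and 14.34 and 11.77 at 120 min with cycloheximide, against 7.60 and 8.67 and then 12.92 and 8.24 in controls. One untreated array, batch 4 at 120 min, was as high as treated arrays, so the groups overlapped, although each pair differed in the same direction. Egr1 differed by 2.61 ± 0.33 (limma adjusted p = 7.12e-05) and by 2.75 ± 0.46 at 60 min (adjusted p = 0.00192). Junb was high on the same untreated array, 11.16 against 7.61, 8.30 and 7.61 on the other controls, and on the cycloheximide arrays it was 8.55 and 9.22 at 60 min and 13.61 and 10.03 at 120 min. Its mean difference was 1.68 ± 0.14 and passed at both times. Jun, the partner of Fos in AP-1, did not overlap between groups: it was 11.17 and 10.99 at 60 min and 12.18 and 11.54 at 120 min with cycloheximide, against 8.74 and 9.72 and then 9.46 and 8.34 in controls. Jun rose by 2.41 ± 0.20 (limma adjusted p = 1.92e-06), with 1.86 at 60 min. Fos itself rose by 1.09 ± 0.30 (limma adjusted p = 0.0220) but had 0.56 at 60 min, which did not pass, and most of its level stood on the batch 4 arrays at 120 min, with 12.27 treated against 10.12 untreated.

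**Figure D1:**
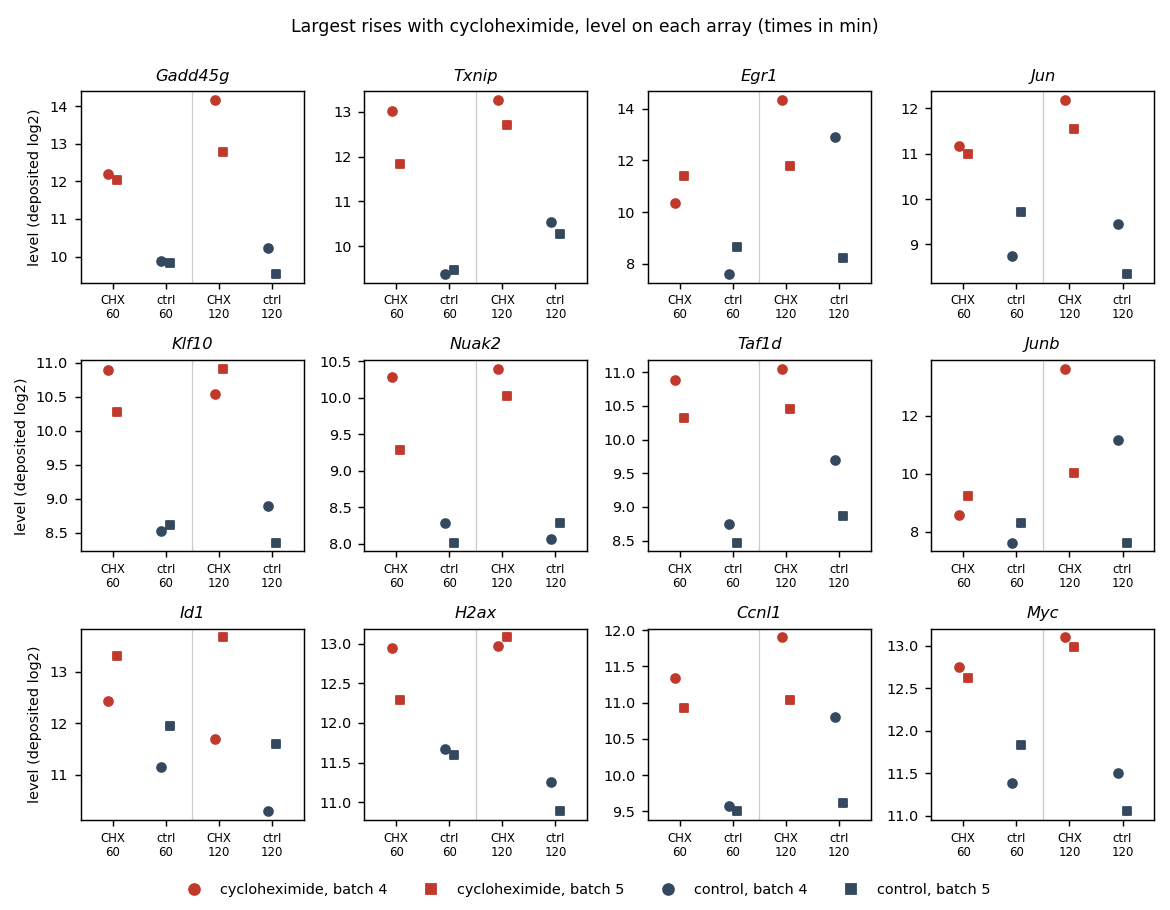
Level of the 12 genes with the largest rises on each of the 8 arrays, in deposited log2 units, with cycloheximide (CHX, red) left of control (ctrl, dark) at 60 and at 120 min. Circles are batch 4 and squares batch 5. For Gadd45g, Txnip, Jun and Klf10 all red points lie above all dark ones, while Egr1 and Junb have a high control in batch 4 at 120 min.

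Klf10, a transcriptional repressor induced early by TGF-beta, was 10.89 and 10.28 at 60 min and 10.54 and 10.91 at 120 min with cycloheximide, against 8.52 and 8.61 and then 8.89 and 8.35 in controls. Its rise of 2.06 ± 0.16 (limma adjusted p = 1.02e-06) was nearly the same at both times, 2.02 and 2.10. Nuak2, a kinase related to AMPK, rose by 1.83 ± 0.13, and Taf1d, a subunit of the RNA polymerase I selectivity factor whose gene also hosts small nucleolar RNAs, by 1.73 ± 0.13. Taf1d was 10.88 and 10.32 at 60 min and 11.05 and 10.45 at 120 min with cycloheximide, against 8.74 and 8.47 and then 9.70 and 8.86 in controls, with no overlap. Ccnl1, a cyclin of the splicing machinery, rose by 1.43 ± 0.08 and had 1.59 ± 0.12 at 60 min, with a limma adjusted p of 3.69e-06 there. H2ax, the histone variant that marks DNA breaks, rose by 1.47 ± 0.13, with 0.98 at 60 min. Of the 12 largest rises 9 did not overlap between groups (3.91% of all probes were higher without overlap). The 12 were chosen for their mean on these same arrays, so this and their passing at 60 min follow in part from that choice. All 12 passed at 60 min alone, and all 12 with the 60 and 360 min controls as reference. At 60 min the count was 4 with no replicate block, 2 without batch 4, 5 without batch 5, 7 with a trended and robust fit, 9 with batch as an additive block, and 11 each with the unnumbered controls and with 36 samples. The call for the mean was lost without batch 4 for Jun, Junb, H2ax and Myc, at 2.24, 1.67, 1.44 and 1.36, and without batch 5 for Egr1 and Junb, at 2.09 and 1.70.

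Of 25 measured immediate early transcription factors, 11 rose and 1 fell for the mean, beside 7.23% and 7.03% of all probes. Their median difference was 0.24, and at 60 min 7 rose and 0 fell. Ier2 rose by 1.18 ± 0.12 and Ier3, a survival factor, by 0.92 ± 0.11, and Mafk, a small Maf protein, was the single fall at -0.45. The list counts moved with the batch left out: 2 rose without batch 4 and 4 without batch 5. Of 11 members of the Myc, Max and Id network, 6 rose and 2 fell, with a median of 0.37. Myc was 12.75 and 12.63 at 60 min and 13.10 and 12.99 at 120 min with cycloheximide, against 11.38 and 11.84 and then 11.50 and 11.05 in controls. The groups did not overlap, and Myc rose by 1.42 ± 0.14 (limma adjusted p = 1.13e-05), with 1.08 ± 0.20 at 60 min. Id1 and Id3, which bind and inactivate basic helix-loop-helix factors, rose by 1.53 ± 0.12 and 1.04 ± 0.09. Mycn rose by 1.23 ± 0.22, and the Myc antagonists Mnt and Mxd4 fell by 0.60 and 0.30, all 3 also at 60 min. Without batch 5, Mycn was 0.72 and did not pass.

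Of 20 MAPK feedback regulators, 2 rose and 0 fell for the mean (14.3% of all probes passed) and 0 passed at 60 min (6.61%), where 3 had an unadjusted limma p under 0.05. The 2 were Dusp1, a phosphatase of MAP kinases, at 1.35 ± 0.23 and Rgs2, a brake on G protein signalling, at 0.69 ± 0.21, which had a limma adjusted p of 0.0919 against the 60 and 360 min controls. Of 20 NF-kB inhibitors and targets, 2 rose and 0 fell, near the 7.23% of all probes that rose. Nfkbia, the inhibitor that holds NF-kB in the cytoplasm, was 11.16 and 11.18 at 60 min and 11.49 and 11.49 at 120 min with cycloheximide, against 10.68 and 10.60 and then 9.84 and 10.04 in controls. These groups did not overlap, the 120 min controls were the lowest, and the difference was 1.04 ± 0.09 (limma adjusted p = 1.92e-06) with 0.53 at 60 min. Of 16 cytokine signalling feedback genes 3 rose and 1 fell, led by Smad7, the inhibitory Smad, at 0.77 ± 0.11, which passed at 60 min at 0.70. Of 12 Kruppel-like factors 3 rose and 0 fell for the mean, and besides Klf10 these were Klf15 at 0.70 and Klf6 at 0.50.

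Of 18 measured splicing regulators known to carry poison exons, 10 rose and 1 fell for the mean, with a median of 0.23. At 60 min 9 rose and 0 fell, with a median of 0.38. Of all probes 7.23% and 3.99% were higher, but these 18 were bright, with a median level of 10.57, and bright probes passed more often. Clk1, a kinase that phosphorylates SR proteins, was 11.21 and 11.19 at 60 min and 11.82 and 10.87 at 120 min with cycloheximide, against 9.97 and 9.55 and then 10.79 and 9.83 in controls. Each cycloheximide array was above all controls, and the difference was 1.24 ± 0.08 (limma adjusted p = 1.26e-07) with 1.44 at 60 min. Clk4, of the same kinase family, was 9.70 and 9.34 at 60 min and 9.49 and 9.26 at 120 min with cycloheximide, against 8.55 and 7.93 and then 8.90 and 8.11 in controls, again without overlap. It rose by 1.07 ± 0.09, and by 1.28 at 60 min. Ptbp2, the neuronal form of the polypyrimidine tract binding protein, rose by 0.89 ± 0.11, Tia1, an RNA-binding splicing and stress granule protein, by 0.77 ± 0.08, and Tra2a and Srsf11 by 0.55 each. Srsf3 and Srsf6 rose at 60 min by 0.40 and 0.52. With the 60 and 360 min controls as reference 12 of 18 rose and 0 fell for the mean, while without batch 4 or batch 5 the count was 3 or 5. At 60 min it was 2 without either batch in turn, 3 with no replicate block and 5 with the unnumbered controls. The array measures whole transcripts and not the poison exon.

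Factors of RNA turnover gave no common direction. Of 20 mRNA decay and deadenylation factors 4 rose and 6 fell, beside 7.23% and 7.03% of all probes. Cnot2, a subunit of the deadenylase complex, rose by 0.95 at 60 min, and Tob2, an adaptor of the same complex, fell by 0.76, with -0.60 at 60 min. Of 7 nonsense-mediated decay factors 0 rose and 1, Magoh of the exon junction complex, fell by 0.34, with -0.02 at 60 min. Of the snoRNA host list 3 of 15 symbols were measured, and 1, Uqcc5, fell by 0.29. Taf1d, whose gene also hosts such RNAs but is not on the list, rose by 1.73. Among 7 histones, 2 rose and 0 fell, both also at 60 min. These were H3f3b, which encodes the replication-independent histone H3.3, by 1.07 ± 0.09 and Hist2h3c2 by 0.71 ± 0.08. The histone variant H2ax, which rose by 1.47, is not on this list. H3f3b was 13.57 and 13.60 at 60 min and 13.82 and 13.73 at 120 min with cycloheximide, against 12.25 and 12.67 and then 12.66 and 12.85 in controls. The groups were separate, and the treated arrays were tightly grouped.

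The falls were smaller than the rises. Dnajb9, an endoplasmic reticulum co-chaperone and a target of the unfolded protein response, was 8.33 and 8.29 at 60 min and 9.45 and 7.83 at 120 min with cycloheximide, against 9.50 and 9.27 and then 10.51 and 9.34 in controls. The treated batch 4 array at 120 min reached the range of the controls, and each pair was lower with cycloheximide. The difference was -1.18 ± 0.12 (4 pairs, limma adjusted p = 7.74e-06), with -1.08 ± 0.16 at 60 min (adjusted p = 0.000889). Rcan2, a regulator of calcineurin, was 8.75 and 8.63 at 60 min and 9.01 and 8.53 at 120 min with cycloheximide, against 9.996 and 9.61 and then 9.90 and 9.66 in controls. The groups did not overlap, and the fall was -1.06 ± 0.07 (limma adjusted p = 3.42e-07), with -1.12 at 60 min. Dnajb9 and Rcan2 were the 2 of the 10 largest falls that passed without either batch.

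**Figure D2:**
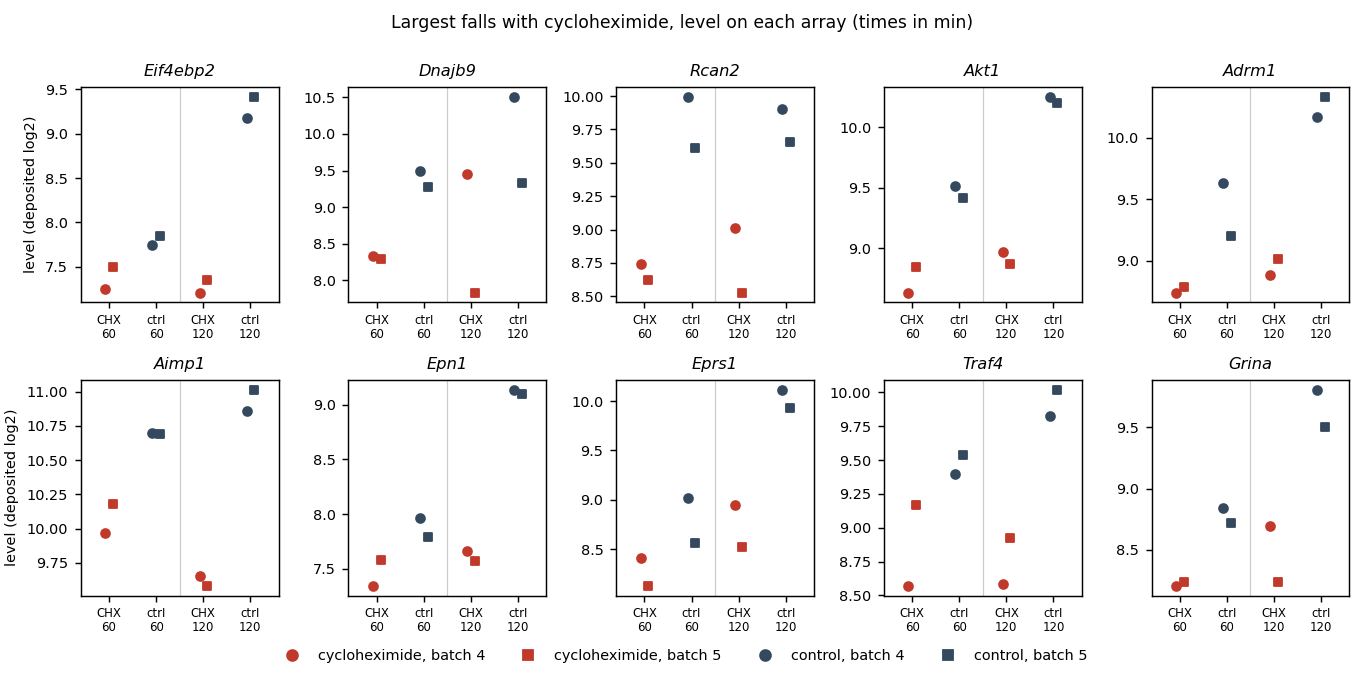
Level of the 10 genes with the largest falls on each of the 8 arrays, in deposited log2 units, with cycloheximide (CHX, red) left of control (ctrl, dark) at 60 and at 120 min. Circles are batch 4 and squares batch 5. Rcan2 is as low at 60 min as at 120 min, whereas for Eif4ebp2 and Epn1 the gap at 120 min comes with controls that are higher than at 60 min.

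Aimp1, a scaffold of the multi-synthetase complex, was 9.97 and 10.18 at 60 min and 9.65 and 9.58 at 120 min with cycloheximide, against 10.70 and 10.69 and then 10.86 and 11.02 in controls. It lay lower on every treated array, by 0.97 ± 0.07 for the mean (limma adjusted p = 7.95e-07), and fell by 0.62 at 60 min. Akt1, the survival kinase, fell by 1.02 ± 0.14, Traf4, a signalling adaptor, by 0.89 ± 0.12, and Grina, a membrane protein of the TMBIM family, by 0.88 ± 0.10, and these passed at 60 min at -0.73, -0.60 and -0.56. The other 4 of the 10 largest falls did not pass at 60 min. The count of 6 at 60 min was 10 without the array with both agents that stood apart and 10 on the 8 arrays or the 60 min arrays alone, but 2 with no replicate block, with the additive block or with the unnumbered controls, 0 without batch 4 and 2 without batch 5. Eif4ebp2, which binds the cap-binding factor eIF4E, was 7.25 and 7.50 at 60 min and 7.21 and 7.35 at 120 min with cycloheximide, against 7.74 and 7.85 and then 9.18 and 9.42 in controls. Its treated arrays were alike at both times and its 120 min controls were high. Against the 60 and 360 min controls the mean differences of Eif4ebp2, Adrm1, Epn1 and Eprs1 were -0.46, -0.55, -0.34 and -0.29 with limma adjusted p of 0.245, 0.140, 0.313 and 0.488. With the unnumbered 60 min controls of the same batches, the differences at 60 min were -0.04 for Akt1, -0.07 for Aimp1, -0.09 for Traf4 and 0.081 for Grina and did not pass. Acvr2b, an activin receptor, and Cdk14, a cyclin-dependent kinase, were among the largest falls at 60 min, at -0.97 ± 0.24 and -0.93 ± 0.14, and at 120 min they had -0.04 and -0.25.

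Of 18 translation initiation and elongation factors 1 rose and 5 fell for the mean (14.3% of all probes passed). At 60 min 1 rose and 1 fell (6.61% of all probes passed there). The rise was Eif4a2, an RNA helicase of the cap-binding complex, which was 12.13 and 11.68 at 60 min and 12.15 and 11.42 at 120 min with cycloheximide, against 11.06 and 10.64 and then 11.57 and 10.94 in controls. It passed at 60 min, 1.05, and for the mean, 0.79 ± 0.09, although one treated array lay below one control of the other batch. Of 18 aminoacyl-tRNA synthetases 0 rose and 5 fell, led by Eprs1 at -0.90 and Cars1 and Rars1 at -0.49 each, and 0 passed at 60 min, where 5 had an unadjusted limma p under 0.05. Of the synthetases 0 fell without batch 4 and 2 without batch 5, and Rars1 had -0.23 against the 60 and 360 min controls and did not pass. Of 47 ribosomal proteins 0 rose and 7 fell, with a median of 0.00, beside 7.03% of all probes that fell. They were bright, with a median level of 14.15. Of the 7 falls 3, Rpl24, Rpl13 and Rps16, also passed at 60 min at -0.46, -0.37 and -0.48. The ribosomal protein falls for the mean numbered 0 without batch 4 and 1 without batch 5. With the unnumbered 60 min controls 3 rose and 4 fell for the mean, and 11 rose and 3 fell at 60 min. Of 23 ribosome biogenesis genes 1 rose and 2 fell for the mean and 3 rose and 1 fell at 60 min. Nop56, of the box C/D snoRNP core, rose by 0.99 at 60 min and had -0.08 at 120 min, while Bop1, of the large subunit pathway, fell by 0.52 for the mean.

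Stress programmes were divided, read beside the 7.23% of all probes that rose and the 7.03% that fell for the mean. Their members lay mostly above the median level, where probes passed more often than these shares. Of 25 genes of the ATF4 amino acid response 4 rose and 7 fell for the mean, and 0 rose and 1, the serine synthesis enzyme Phgdh, fell at 60 min. Ddit4, an inhibitor of mTORC1, rose by 0.99 ± 0.19, Cebpb by 0.65 ± 0.16, while Trib3, a pseudokinase, fell by 0.76 ± 0.17 and Chac1, a glutathione-degrading enzyme, by 0.63 ± 0.17. Of 24 genes of the unfolded protein response and folding in the endoplasmic reticulum 3 rose and 6 fell, and after Dnajb9 the largest was Pdia3, a disulfide isomerase, at -0.48 with -0.12 at 60 min. Of 19 heat shock genes and chaperones 2 rose and 3 fell for the mean, led by Hsp90aa1 at -0.67, and 0 passed at 60 min, where 5 had an unadjusted limma p under 0.05. Of 10 polyamine genes 2 rose and 2 fell. The catabolic enzyme Sat1 rose by 0.78 ± 0.09 and by 1.02 at 60 min, and Smox by 0.63 ± 0.08. Odc1, the entry enzyme of polyamine synthesis, was 10.10 and 10.05 at 60 min and 10.31 and 10.13 at 120 min with cycloheximide, against 10.60 and 10.50 and then 10.83 and 10.78 in controls, and fell by 0.53 ± 0.09 with no overlap. Sms, a synthase of the same pathway, fell by 0.42. Against the 60 and 360 min controls Trib3 was -0.39, Chac1 -0.40, Pdia3 -0.19 and Hsp90aa1 -0.28, and these did not pass in limma. Of the ATF4 genes 0 passed without batch 4, and 1 rose and 2 fell without batch 5.

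**Figure D3:**
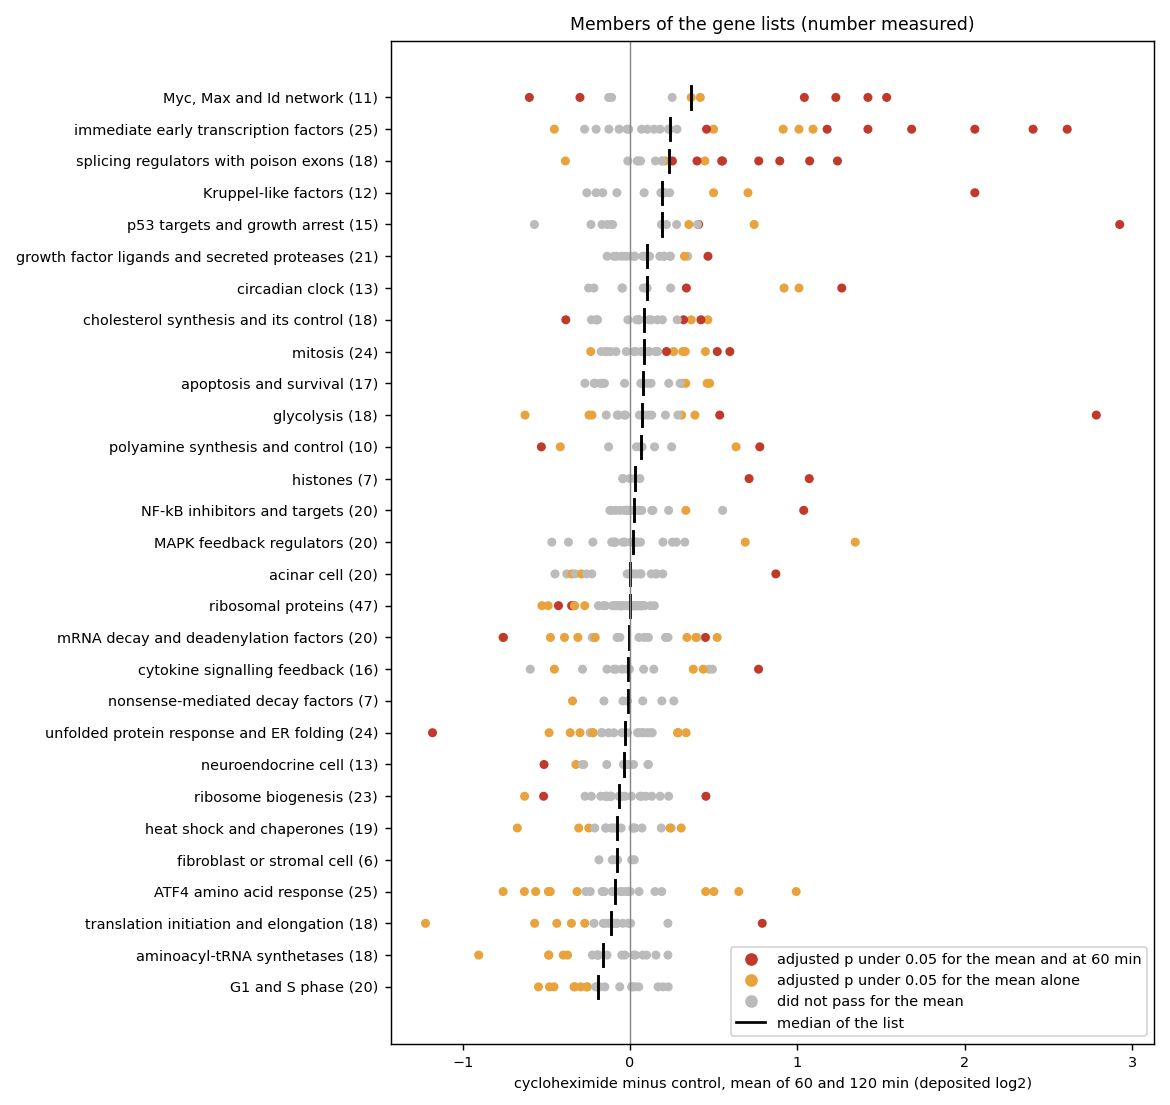
Difference between cycloheximide and control, mean of 60 and 120 min in deposited log2 units, for each measured member of the gene lists, which are ordered by their median (black bar). Red points passed an adjusted p of 0.05 for the mean and at 60 min, orange points for the mean alone, and grey points did not pass. Splicing regulators and immediate early factors hold many red points to the right, and aminoacyl-tRNA synthetases and G1 and S phase genes hold orange points to the left.

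Among 20 G1 and S phase genes 0 rose and 8 fell for the mean, with a median of -0.19, led by Ccne2, a cyclin of S phase entry, at -0.55 and Ccnd2 at -0.48, and at 60 min 1 rose and 0 fell. Without batch 4 and batch 5 the G1 and S phase falls numbered 0 and 1. Of 24 mitotic genes 7 rose and 1 fell for the mean and 4 rose and 0 fell at 60 min. Bub1b, a spindle checkpoint kinase, rose by 0.60 ± 0.07 and Aurka, the centrosome kinase, by 0.52 ± 0.07, with 0.56 and 0.55 at 60 min. Of the mitotic genes 2 rose and 2 fell against the 60 and 360 min controls, and 0 and 1 rose without batch 4 and batch 5. Of 15 p53 targets and growth arrest genes 4 rose and 0 fell for the mean, where 7.23% of all probes rose and 7.03% fell. Besides Gadd45g these were Gadd45b at 0.74, Mdm2 at 0.41 and Phlda3 at 0.35. Of 17 genes of apoptosis and survival 4 rose and 0 fell for the mean and 0 passed at 60 min, where 6 had an unadjusted limma p under 0.05. Mcl1, a short-lived survival protein, rose by 0.48 ± 0.11.

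Of 13 circadian clock genes 4 rose and 0 fell for the mean, where 7.23% of all probes rose and 7.03% fell. Nfil3, a repressor that acts on clock promoters, was 10.61 and 10.58 at 60 min and 12.26 and 10.96 at 120 min with cycloheximide, against 9.40 and 10.07 and then 10.46 and 9.41 in controls. Each treated array was above all controls, and Nfil3 rose by 1.27 ± 0.17 (limma adjusted p = 0.000131). Bhlhe40, Nr1d1 and Cry2, all transcriptional repressors of the clock, rose by 1.01, 0.92 and 0.34, of which Cry2 passed at 60 min. Of 18 genes of cholesterol synthesis and its control 4 rose and 1 fell at each of the 2 readings, the mean and 60 min. Fdft1, squalene synthase, rose by 0.42, and Insig2, which retains the SREBP complex, fell by 0.38. Of 18 glycolysis genes 4 rose and 3 fell, and after Txnip the largest was the kinase Pfkl at -0.63, with -0.16 against the 60 and 360 min controls. Of 21 growth factor ligands and secreted proteases 2 rose and 0 fell, near the 7.23% of all probes that rose. These were Vegfc by 0.47 and Egf by 0.33.

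Of 20 acinar markers 1 rose and 2 fell, beside 7.23% and 7.03% of all probes. Ptf1a, the transcription factor that drives acinar differentiation, was 13.40 and 13.33 at 60 min and 14.26 and 13.94 at 120 min with cycloheximide, against 12.71 and 13.12 and then 12.91 and 12.70 in controls. The groups did not overlap, and it rose by 0.87 ± 0.08 (limma adjusted p = 7.74e-06), with 0.45 at 60 min. The digestive protease genes Ctrc and Cela3b fell by 0.35 and 0.29 and did not pass at 60 min. Of 13 neuroendocrine markers 0 rose and 2 fell, Pcsk2, a prohormone convertase, by 0.51 and Syp, of secretory vesicles, by 0.32, and Syp had -0.077 against the 60 and 360 min controls. Of 6 stromal, 5 immune or endothelial and 4 ductal markers 0 passed in either direction in limma (14.3% of all probes), and 1, 0 and 1 had an unadjusted p under 0.05. The mean level of the stromal markers was 5.99 to 6.04 on cycloheximide arrays and 6.04 to 6.15 on controls, and that of the immune and endothelial markers 6.02 to 6.13 and 6.03 to 6.09.

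The effect at 120 min differed from that at 60 min for 1319 probes in limma (5.86%), 564 upward (2.50%) and 755 downward (3.35%). The count was 28 with the 60 and 360 min controls in place of the 120 min controls, 388 without batch 4 and 12 without batch 5. With the 60 and 360 min controls as reference, the 60 min control enters both of the effects compared, which can itself change the count. Copz1, a coatomer subunit, was 10.14 and 10.70 at 60 min and 9.44 and 9.75 at 120 min with cycloheximide, against 9.21 and 9.62 and then 11.06 and 11.46 in controls. Copz1 thus lay above its controls at 60 min and below them at 120 min, and its controls at 360 min were 9.48 and 9.90. The difference between times was -2.67 ± 0.25 (adjusted p = 9.77e-05). Nnat, Cald1 and Crp followed at -2.23, -1.88 and -1.69. Akr1c12, an aldo-keto reductase, had the largest upward difference, 4.88 ± 1.02, with 9.47 and 9.21 and then 7.83 and 10.01 with cycloheximide against 12.52 and 11.15 and then 6.62 and 6.45 in controls. Its controls at 360 min were 12.09 and 11.43, and with the 60 and 360 min controls as reference the difference between times was -0.38. Angel1, Mtch1 and Oplah were also higher at 120 min, by 1.73, 1.70 and 1.67, and in each of these 3 the 120 min controls were the low arrays. Of the 12 largest rises Gadd45g, Junb and H2ax differed between times, by 1.33, 1.50 and 0.98, and of the 10 largest falls Eif4ebp2 and Aimp1, by -1.59 and -0.70.

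**Figure D4:**
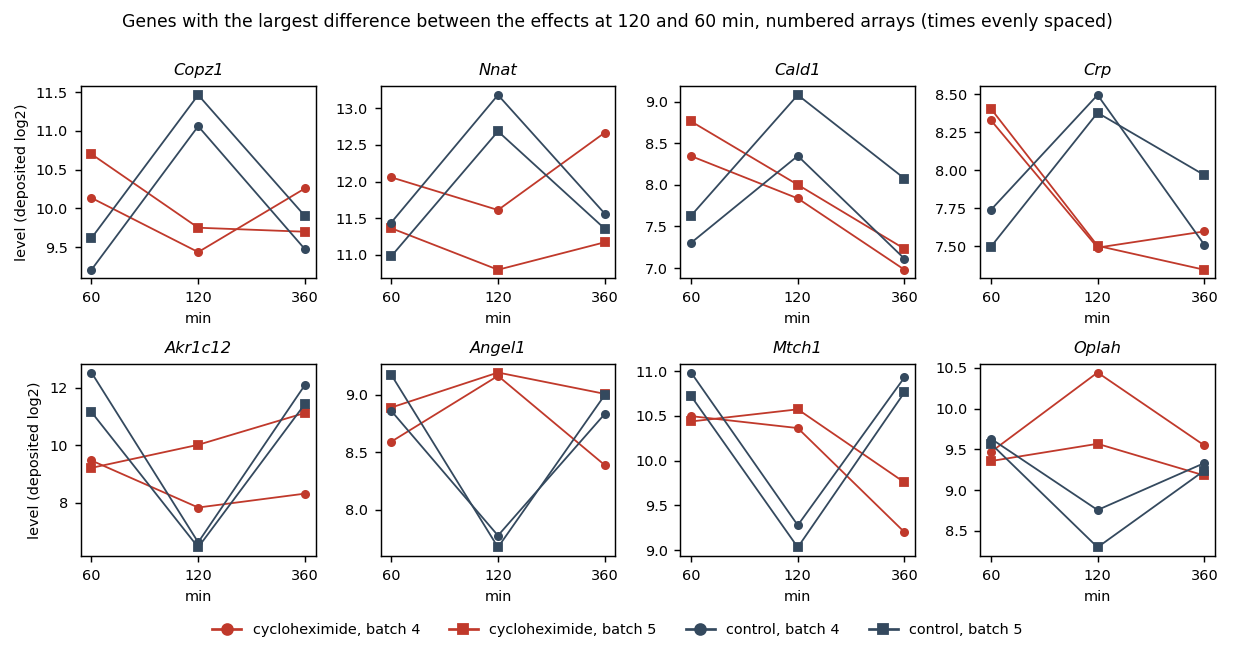
Level by time of the 8 genes with the largest difference between the effects at 120 and 60 min, in deposited log2 units, with cycloheximide in red and control in dark (circles batch 4, squares batch 5). In each panel the controls at 120 min depart from the controls at 60 and 360 min.

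Arrays of batches 4 and 5 with gastrin gave the effect of cycloheximide on other samples. Gastrin with cycloheximide differed from gastrin alone for 1994 probes in limma (8.85%), with 1095 higher (4.86%) and 899 lower (3.99%). Of the 1629 probes higher without gastrin 758 were higher here too, which is 46.5% of the first list and 69.2% of the second, and 3 were lower. Of the 1584 lower probes 446 were lower here, 28.2% and 49.6% of the lists. All 12 of the largest rises passed beside gastrin, among them Gadd45g at 2.65, Txnip at 2.34 and Egr1 at 2.20. Of the 10 largest falls 3 passed, Dnajb9 at -1.35, Aimp1 at -0.99 and Rcan2 at -0.91, while Eif4ebp2, Adrm1 and Epn1 were 0.28, 0.29 and 0.26. These 3 positive values came with the array with both agents in batch 5 at 120 min. There Eif4ebp2 was 9.25, against 7.72 on its gastrin array, while its other 3 arrays with both agents lay at 7.49, 7.64 and 7.23, each below its gastrin array. Adrm1 was 10.44 against 9.22 on that pair and Epn1 9.06 against 7.72. Without that array the 3 differences were -0.16, -0.053 and -0.11 and did not pass, and 7 of the 10 largest falls passed, Akt1, Traf4, Grina and Eprs1 among them at -0.48, -0.55, -0.29 and -0.41.

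The difference between the effects with and without gastrin passed for 10 probes (0.0444%), 6 upward (0.0266%) and 4 downward (0.0178%), against 2826 at an unadjusted limma p under 0.05. Without the array with both agents that stood apart the count was 116, with 83 upward and 33 downward, and Eif4ebp2, Adrm1 and Epn1, whose untreated arrays at 120 min were high, were among them at 1.06, 0.92 and 0.85. Of the named ones, chosen after their values were seen, Trib3 was -2.28 beside gastrin and -0.76 without it, a difference of -1.52 ± 0.24 (adjusted p = 0.0357). Ddit3, the stress factor CHOP, was -0.68 beside gastrin and 0.50 without it, a difference of -1.18 ± 0.15 (adjusted p = 0.0134). Both belong to the ATF4 response. Kmt2e was 0.82 beside gastrin and -0.85 without it, and Ccnd2, Eln, Actn4, Cdt1 and Kcnk3 had upward differences of 0.63 to 0.83.

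At 240 and 360 min, on other arrays of batches 4 to 6 in 5 pairs, 5749 probes passed in limma (25.5%), with 2761 higher (12.3%) and 2988 lower (13.3%). The 240 min arrays belong to the unnumbered title series, which separated from the numbered one on the first axis of variation (30.2% of variance). Of the 1629 early rises 984 were higher later, 60.4% of them and 35.6% of the later list, and 89 were lower. Of the 1584 early falls 766 were lower later, 48.4% and 25.6%, and 110 were higher. All 12 of the largest rises passed later, with Gadd45g at 3.00 ± 0.19, Txnip at 3.17 ± 0.30, Jun at 2.69 ± 0.20 and Klf10 at 1.80 ± 0.14. The later effect differed from the early one for 2833 probes (12.6%), 1357 upward (6.02%) and 1476 downward (6.55%). Ccnl1 was higher later than early, 2.09 against 1.43, a difference of 0.66 (adjusted p = 0.00115), and Id1 lower, 0.69 against 1.53, a difference of -0.84 (adjusted p = 0.0447). The 5 later pairs of Id1 ran from -0.32 to 1.48 with a median of 0.94.

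**Figure D5:**
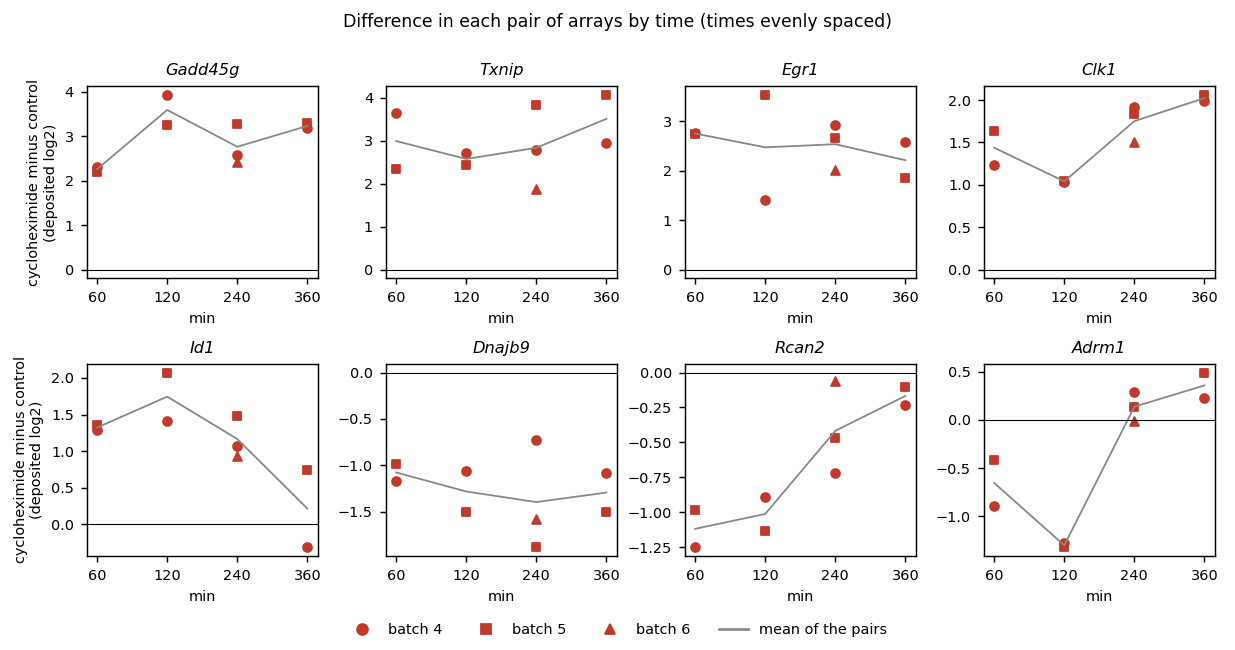
Difference between cycloheximide and control in each pair of arrays by time, in deposited log2 units, for 8 of the named genes (circles batch 4, squares batch 5, triangles batch 6, grey line the mean of the pairs). Gadd45g, Txnip, Egr1 and Clk1 stay above 0 at all times, Dnajb9 stays below 0, and the points of Rcan2 and Adrm1 move towards or past 0.

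Of all probes 12.3% were higher and 13.3% lower at these later times. Splicing regulators were higher in 16 of 18 later and lower in 0, with Clk1 at 1.89 and Clk4 at 1.43. These 18 were bright, and the share among bright probes was not counted for the later times. Of 25 immediate early factors 14 were higher and 0 lower. Among the largest falls 6 of 10 passed later. Dnajb9 was -1.35 ± 0.15 and Aimp1 -1.04 ± 0.09, while Rcan2 fell by 0.29 ± 0.10, less than early, with a difference of 0.77 (adjusted p = 0.00146). Adrm1, Epn1 and Grina also differed from the early effect, by 1.22, 0.97 and 0.75, and were 0.25, 0.01 and -0.13 later. That early effect includes the 120 min controls that stood apart. At 60 min alone Adrm1 and Epn1 were -0.65 and -0.42 and did not pass in limma, and Grina was -0.56. A recovery from an early fall was therefore not shown for Adrm1 and Epn1. Mitotic genes, of which 7 rose early, had 1 higher and 16 lower later, and Bub1b and Aurka were -0.25 and -0.45.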

How the data were processed

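Illumina bead arrays measured total RNA of AR42J cells, as the labels state. The authors deposited log2 values for 22523 probes, between 5.51 and 14.84. Per the submitters' processing notes the tool was lumi 2.4.0. No source used here says whether the scale is plain or variance-stabilised. Array medians were 6.403 to 6.406. Signal over background is unknown, and the number of arrays limits the precision. Probe names came from the platform annotation: 13793 probes had 1 symbol and 8730 none, and of 425 genes with several probes the one with the highest mean level was used.

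Differences were fitted with limma 3.58.1 in R 4.3.3 on 16 numbered arrays (batches 4 and 5, 60 and 120 min, with and without gastrin and cycloheximide), with each pairing of batch and time as a block, a stimulus effect per time, 6 residual degrees of freedom and Benjamini-Hochberg adjustment over all probes at 0.05. Later times used 36 samples of batches 4 to 6, with technical repeats averaged. The block was used because paired arrays share the prefix and the time in their titles. The batch deviations of cycloheximide and control arrays also correlated, at 0.540 at 60 min and 0.589 at 120 min. The code was tested on simulated data.

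Named genes were the 12 largest rises and 10 largest falls for the mean with the same sign in 4 of 4 pairs, the 6 rises and 4 falls largest at 60 min, the 4 largest each way in the difference between times, and up to 4 members of each of 32 gene lists. Genes beyond these are named as examples chosen after their values were seen. The comparison, its lists and this rule were chosen with earlier results of these data known. Alternatives were other blocks, arrays, weights, filters, scalings and controls, and each batch left out. The 2 arrays whose title and stimulus label contradict each other were not used.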

Additional observations from a re-analysis of the deposited data

Results flagged for a closer look

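The effects at 120 and 60 min differed in limma for 5 of the 22 genes named for the mean and for the 8 genes named for that difference. The difference, 120 minus 60 min, was 1.33 for Gadd45g, 1.50 for Junb, 0.98 for H2ax, -1.59 for Eif4ebp2 and -0.70 for Aimp1. It was 4.88 for Akr1c12, 1.73 for Angel1, 1.70 for Mtch1 and 1.67 for Oplah, and -2.67 for Copz1, -2.23 for Nnat, -1.88 for Cald1 and -1.69 for Crp. The departure of the 120 min controls, given in the report, moves with these values, and its part in them was not tested beyond the change of reference.

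In 8 of 146 named or listed genes the cycloheximide minus control difference of one pair lay far from the other 3, with a gap that took more of the range than Dixon's critical value for 4 values. Chance gives such a gap in about 5% of groups. The pair of Id1 at 2.07 had a ratio of 0.838, that of Ptbp2, at 1.47, 0.853, and that of Socs3, a feedback inhibitor of cytokine signalling, at 1.89, 0.934. The pair of Rrad, a small GTPase, at -1.50 had 0.883, and those of Rrp9 at -0.02 and Gins1 at -0.57 had 0.881 and 0.837. For the dim markers Krt7, at -0.36, and Col1a1, at -0.23, the ratios were 0.837 and 0.937. The causes were not tested.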

How the results depend on the processing

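The count of probes past the limma threshold changed with the block and with a batch left out. For the mean, 3213 became 1212 with no replicate block and 102 to 607 with a batch left out. At 60 min, 1488 became 265 with no replicate block, 898 with batch as an additive block, 80 to 81 with a batch left out, 2646 with array weights, 2800 on the 60 min arrays alone and 3311 with the unnumbered controls, which also exchange the title series. At 120 min, 3422 became 1099 with no replicate block, 449 to 2134 with a batch left out and 1221 with the 60 and 360 min controls. For the difference between times, 1319 became 45 with no replicate block, 630 with the additive block, 12 to 388 with a batch left out, 2068 on the 8 arrays alone and 28 with the 60 and 360 min controls. Without the array with gastrin and cycloheximide of batch 5 at 120 min, an alternative chosen after seeing the data, 2359 passed at 60 min and 2487 for the difference between times. The causes of these shifts were not tested. Where a batch is left out, the fit also has fewer arrays and another model, so the parts of these cannot be told apart.

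Directions turned for Grina at 60 min (0.081), Uqcc5 (0.11), Rpl13 (0.31), Chordc1 (-0.18), Hspe1 (0.34) and Ctrc (0.19) with the unnumbered controls. With the 60 and 360 min controls they turned for Akr1c12 in the difference between times (-0.38), Hyou1 (0.031) and Chordc1 (-0.026). With no replicate block, 9 of the 12 largest rises and 9 of the 10 largest falls passed for the mean, and Egr1, Junb, Id1 and Dnajb9 did not. Of the other named list members, 40 lost the call for the mean with no replicate block, 74 without batch 4, 52 without batch 5, 24 with the 60 and 360 min controls, 21 with the unnumbered controls, 15 with the additive block, 12 with a trended and robust fit, 8 with 36 samples and 1 with centring on invariant probes. With 2 arrays for each time and treatment, small differences could not be told from the spread between arrays.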

Other observations

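Some genes passed at 60 min alone and had no like difference at 120 min, and they were picked after their values were seen. Canx, the lectin chaperone calnexin, had 1.06 at 60 min (limma adjusted p = 0.000912) and -0.48 at 120 min. Npm1, nucleophosmin of the nucleolus, had 0.87 and -0.41, and Wdr12, of ribosome assembly, 0.62 and -0.60. Hk2, hexokinase, had 0.97 at 60 min and 0.10 at 120 min, and Cnot2 0.95 and -0.05. Beside gastrin, over both times, Canx was -0.27, Npm1 -0.15, Wdr12 -0.18, Hk2 0.04 and Cnot2 0.30, and of these Cnot2 alone passed.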
